A study of Mus musculus with 5 samples.

Results

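The MHC class II gene cluster of the mouse was examined for signal of PU.1, an ETS-family transcription factor encoded by Spi1, in dendritic cells. The cluster was taken as the mm10 spans of 9 genes on chromosome 17 (H2-Oa, H2-DMa, H2-DMb2, H2-DMb1, H2-Ob, H2-Ab1, H2-Aa, H2-Eb1 and H2-Eb2) with the intervals between them, chr17:34092379-34341410, a stretch of 249 kb. Deposited windows no more than 100 bp from the next one formed a site, and each site was given to the nearest of the 9 genes. The cluster held 48 of the 67233 sites of the genome. Of these, 22 lay in the span of one of the 9 genes and 26 between spans.

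Chromatin immunoprecipitation and sequencing (ChIP-seq) of PU.1 had been done with the T-20 antibody in conventional dendritic cells (cDCs), which take up and present antigen, and in plasmacytoid dendritic cells (pDCs), which are known for type I interferon. Both were grown in culture with Flt3L from mice of a strain labelled C56BL/6, with no treatment or genetic change named. Each cell type had 2 PU.1 libraries, and the only input, DNA without precipitation, came from cDCs and also served for pDCs. Totals over windows were 6896416 to 8099633 counts in the pDC libraries, 11034858 to 11388554 in the cDC libraries and 2776490 in the input, so the pDC values are the less precise ones. The pDC libraries also differed more from each other. Windows with at least 1000 input counts are called repeat windows here. Over the other tested windows with at least 20 counts in the pair, the mean chi-square was 2.11 for the pDC pair and 1.36 for the cDC pair. In repeat windows pDC replicate 2 had 18.0% of its counts, where the other PU.1 libraries had 9.15 to 10.5%. The labels do not say whether the replicates came from separate cultures, so p-values measure the spread between libraries, which may be technical. Log2 folds are pDC minus cDC with their standard error (n = 2 libraries per cell type), adjusted p-values are those of the quasi-likelihood test of edgeR over the whole genome, and a difference is called at 0.05. CPM values are counts relative to the TMM-scaled total of each library's tested windows. The files hold PU.1 signal and no expression, so the cell type labels could not be checked by expressed markers. Summed PU.1 signal nearest to 6 measured cDC markers was higher in cDCs at Cd24a and in pDCs at Sirpa. Of 4 measured pDC markers 2 were higher in pDCs (Siglech and Bst2), as were 2 of 6 B cell markers (Pax5 and Cd79b) and 1 of 4 macrophage markers (Mertk), where 8.52% of all genes were higher in cDCs by this sum and 9.70% in pDCs. Over the gene span and 10 kb on both sides, Adgre1, another macrophage marker, was higher in cDCs (log2 fold -1.80, adjusted p = 0.00334), and Cd79b (0.34, adjusted p = 0.147) and Sirpa (0.29, adjusted p = 0.0734) were not called. By that sum Ly6d, a pDC marker nearest to no site, was higher in pDCs (1.20, adjusted p = 0.00241). Cd24a stayed higher in cDCs, and Siglech, Bst2, Pax5 and Mertk in pDCs, where 8.17% of all genes were higher in cDCs and 9.03% in pDCs. The part of other cells in the differences below was not tested.

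MHC class II molecules are pairs of an alpha and a beta chain that carry peptides from the endosome to the cell surface for CD4+ T cells. H2-Aa and H2-Ab1 encode the chains of H2-A, and H2-Eb1 and H2-Eb2 are beta-chain genes of the H2-E kind. H2-DM, made from H2-DMa with either H2-DMb1 or H2-DMb2, exchanges peptides on class II molecules, and H2-O, made from H2-Oa and H2-Ob, holds H2-DM in check. Transcription of these genes depends on the coactivator CIITA, which is recruited by factors bound at the X and Y boxes of their promoters, and the Ciita gene is read from different promoters in cDCs and pDCs. PU.1 binds DNA at a GGAA core.

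A PU.1 site overlapped the promoter window (250 bases before to 50 after the start, RefSeq, GRCm38.p6) of 3 of the 9 genes, and these 3 windows are shown because they let the letters be set beside the signal. They are written 5′ to 3′ on the gene's strand, H2-Eb1 at chr17:34305617-34305916 on the plus strand, H2-Aa at chr17:34287774-34288073 on the minus strand and H2-Eb2 at chr17:34325425-34325724 on the plus strand. Capitals mark the ETS core (GGAA or TTCC), the Y box letters (CCAAT or ATTGG) and the X box pattern.
H2-Eb1: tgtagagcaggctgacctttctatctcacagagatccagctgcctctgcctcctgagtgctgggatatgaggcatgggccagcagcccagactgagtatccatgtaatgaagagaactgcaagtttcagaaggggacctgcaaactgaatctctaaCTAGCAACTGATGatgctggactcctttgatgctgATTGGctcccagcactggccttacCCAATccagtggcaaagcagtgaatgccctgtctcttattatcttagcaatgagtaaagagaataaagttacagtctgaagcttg
H2-Aa: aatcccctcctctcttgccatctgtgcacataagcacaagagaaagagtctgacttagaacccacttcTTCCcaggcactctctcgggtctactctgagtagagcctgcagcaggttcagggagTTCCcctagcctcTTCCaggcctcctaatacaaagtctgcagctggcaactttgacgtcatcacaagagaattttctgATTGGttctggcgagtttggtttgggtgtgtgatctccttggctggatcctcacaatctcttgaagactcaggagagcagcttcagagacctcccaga
H2-Eb2: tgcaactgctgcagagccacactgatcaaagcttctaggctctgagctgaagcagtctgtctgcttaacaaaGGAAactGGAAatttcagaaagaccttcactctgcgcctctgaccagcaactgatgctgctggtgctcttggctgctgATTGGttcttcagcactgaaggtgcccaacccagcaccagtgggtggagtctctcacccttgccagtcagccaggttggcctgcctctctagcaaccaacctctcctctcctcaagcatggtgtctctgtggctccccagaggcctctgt
The H2-Eb1 window held the X box pattern 94 bases before the start and Y box letters at 59 and 35 bases before it, and no GGAA or TTCC. The H2-Aa window held 3 TTCC cores, 182, 126 and 113 bases before the start, and Y box letters 48 bases before it. In the H2-Eb2 window 2 GGAA cores lay 178 and 171 bases before the start, and Y box letters 100 bases before it.

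RefSeq gave 9 promoter windows for 8 of the genes, 2 of them for H2-DMa, and none for H2-Ab1. An ETS core, on either strand as for all motifs here, was in 8 of the 9 windows and in 96.0% of 32851 mouse promoter windows of the same length. The longer ETS letters AGGAAGT, which contain that core, were in 1 window, that of H2-Oa, and in 9.35% of all. The still longer GAGGAAGT (3.20% of all), GGAA followed after 2 bases by GAAA as in ETS-IRF composites (2.72%) and GAAA followed after 2 bases by GAAA (3.44%) were in none. Y box letters were in 8 of the 9 windows and in 37.4% of all promoters. The X box pattern was in 2, those of H2-DMb1 and H2-Eb1, and in 0.0609% of all. Only exact matches to that pattern were counted, so a window without it may still hold a diverged X box.

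PU.1 signal over the cluster leaned to cDCs, and most sites were not called different. Of the 48 sites 44 had enough counts to test, and 7 gave a higher value in cDCs (15.9%, where 6.07% of all tested sites of the genome did). In pDCs 2 were higher (4.55%, against 8.53%), and the other 35 were not called. The cDC-higher sites at 34135601, 34301901, 34305751 and 34308201 were not above input in cDCs with libraries scaled to their totals. Scaling by repeat windows, those with at least 1000 input counts, called 7 sites higher in cDCs and 0 in pDCs. Over the genome that scaling called 3859 sites higher in cDCs and 1029 in pDCs, where the main scaling called 3644 and 5124. By window, 30 of 259 tested were higher in cDCs (11.6%, against 6.36% of the genome) and 9 in pDCs (3.47%, against 7.99%). With repeat-window scaling 21 and 0 were, where the windows called over the genome, in either direction, fell from 41111 to 20556. The median log2 fold of the 44 sites was -0.33 and that of all tested sites 0.03, and 77.3% of the cluster sites and 48.4% of all sites had a negative value. Both cDC libraries were above both pDC libraries at the strongest window of 25 tested sites (56.8%, against 28.4% of the genome), and both pDC libraries were above at 8 (18.2%, against 29.1%). The cluster's sites were also stronger than most, with a median mean count of 31.9 at the strongest window against 19 for all sites, and windows with more counts are called more often. Among the 23 sites with a mean of at least 30 counts, a limit chosen after seeing the data, 3 were higher in cDCs (13.0%, against 9.53% of such sites) and 2 in pDCs (8.70%, against 9.02%), so there the shares lay nearer to the background.

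**Figure D1:**
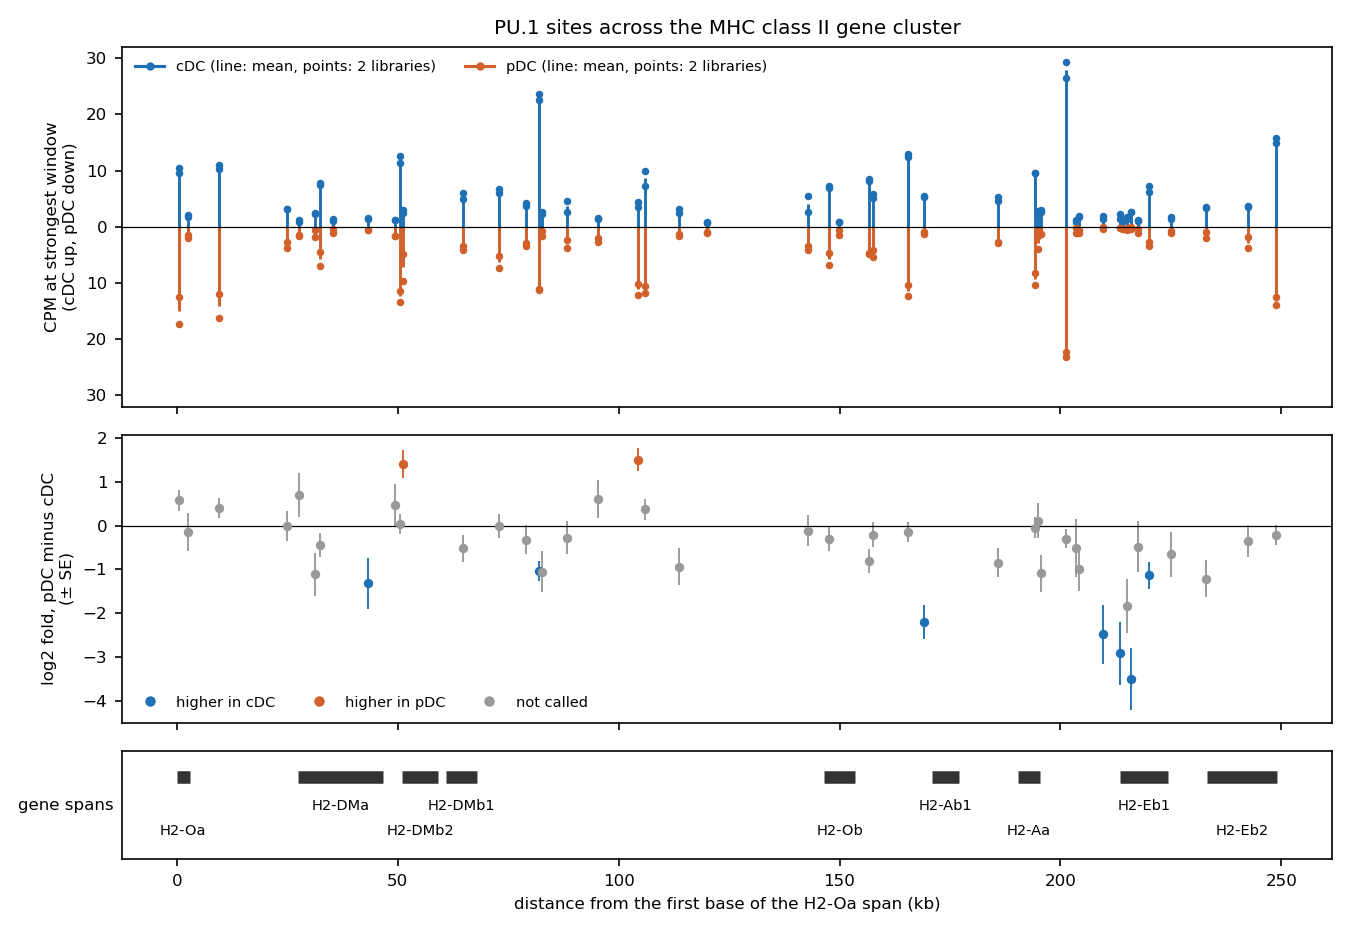
PU.1 signal across the cluster by distance from the first base of the H2-Oa span. Top: CPM at the strongest window of each of the 48 sites, cDCs upward and pDCs downward, with lines for means and points for libraries. Middle: log2 fold (pDC minus cDC) with its standard error for the 44 tested sites, coloured by call. Bottom: gene spans. The lowest folds, down to -3.50, lie around H2-Eb1, and the pDC-higher sites lie in the span of H2-DMb2 and in that of the class I gene Tap1.

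Summed over all tested windows, the cluster held 1166 and 1153 CPM in cDC replicates 1 and 2, where the pDC replicates had 958 and 957 CPM. The log2 fold was -0.28 ± 0.08 (edgeR adjusted p = 0.0380), and the call ended in 7 of 12 alternatives. It ended without cDC replicate 1 or 2 (edgeR adjusted p = 0.421 and 0.388, log2 fold -0.28 both times), with a replicate block (0.0702), with the input in the fit (0.0689), at a mean of at least 30 counts (0.169), with repeat-window scaling (0.670) and at a minimum fold of 1.5 (1.00). At 23 tested sites (52.3%) the cDC signal was above input at 2-fold or more and an adjusted p under 0.05, against 31.6% of the genome's sites, and at 18 (40.9%, against 28.6%) the pDC signal was. 16 sites passed in both cell types and 19 in neither. The input had at most 9 counts in any window of the cluster, and 74.6% of its total lay in 146 repeat windows, so scaling to totals counts those windows as input depth. With repeat windows as the scale, chosen after seeing the data, 44 cDC and 39 pDC sites were above input. That scale raises the fold over input at all sites of the genome. Their share above input was not taken, so these counts do not set the cluster apart.

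By gene, each site used once, 4 of the 9 summed signals were higher in cDCs (44.4%, against 8.52% of all genes tested this way) and 0 in pDCs (against 9.70%). In pDCs 1 had an unadjusted p under 0.05, H2-Oa, and DESeq2 likewise called 0. The 4 genes were H2-Eb1, H2-Ab1, H2-Aa and H2-Ob. Only the H2-Eb1 call held without each library in turn and at a minimum fold of 1.5. The 9 sums take in every site of the interval, while elsewhere each site went to its nearest protein-coding gene, so they were not made alike. Over the span and 10 kb on both sides, made alike for all genes, 3 were higher in cDCs, against 8.17% of all genes. They were H2-Eb1, H2-Ab1 and H2-Aa, and 0 were higher in pDCs, against 9.03%. The sites nearest to the 4 H2-A and H2-E chain genes gave 5 of 19 tested higher in cDCs (26.3%, against 6.07% of the genome). In pDCs 0 were higher (against 8.53%), and the median log2 fold was -0.85. Of the 5 sites 4 were nearest to H2-Eb1 and 1 to H2-Ab1, and H2-Aa and H2-Eb2 had 0, so the share mostly describes H2-Eb1. Sites nearest to the 3 H2-DM genes gave 2 and 2 of 17 (11.8% each) with a median of -0.01, and those nearest to the H2-O genes 0 and 0 of 8 with a median of -0.17. The H2-DM group takes in sites by class I genes. Its calls include a pDC-higher site in the span of Tap1, 36.3 kb past H2-DMb1, and a cDC-higher site 13.8 kb past H2-DMb1. No site of the H2-A and H2-E genes had both pDC libraries above both cDC libraries, and 15 had the reverse (78.9%, against 28.4% of the genome, and 0 against 29.1%). At an unadjusted p under 0.05 the H2-A and H2-E sites numbered 9 for cDCs and 0 for pDCs of 19 tested. The H2-DM sites numbered 3 and 2 of 17 and the H2-O sites 1 and 0 of 8. The share of all sites of the genome was not taken at an unadjusted p, so such counts have no background. DESeq2 called 1 site of the H2-A and H2-E group, higher in cDCs, 1 of the H2-DM group, higher in pDCs, and 0 of the H2-O group. Over the genome DESeq2 called 432 sites higher in cDCs and 1464 in pDCs.

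**Figure D2:**
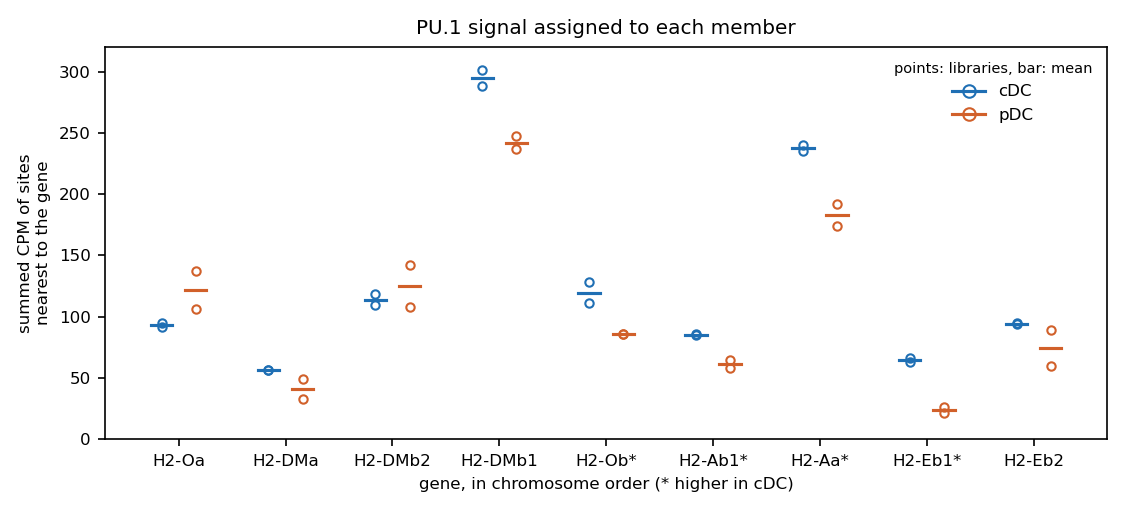
Summed CPM of the sites nearest to each gene, in chromosome order. Points are libraries, bars are means of 2, and stars mark sums called higher in cDCs. The cDC and pDC libraries are farthest apart, relative to their level, at H2-Eb1, where the cDC values are 65.8 and 63.2 CPM and the pDC values 21.1 and 26.3 CPM.

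H2-Eb1, the beta chain gene of H2-E (chr17:34305867-34316674), had the lowest pDC to cDC ratio of the 9. Its 8 sites summed to 65.8 and 63.2 CPM in cDCs and 21.1 and 26.3 CPM in pDCs. The cDC signal was 2.73-fold higher (log2 fold -1.45 ± 0.19, edgeR adjusted p = 0.00151). All 7 tested sites had a negative log2 fold, 4 were higher in cDCs, 3 were not called, and the 10 bp site at 34306601 was not tested. With repeat-window scaling the sum was no longer called (log2 fold -1.96, edgeR adjusted p = 0.112).

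The site with the lowest log2 fold of the cluster lay inside the H2-Eb1 span at chr17:34308201-34308410. Its strongest window held 28 and 31 counts in cDCs, 0 and 3 in pDCs and 2 in the input. The ratio of scaled counts, cDC over pDC, was 12.1 with a 95% exact interval of 3.93 to 60.1, which covers counting error only (log2 fold -3.50 ± 0.70, site adjusted p = 0.00391). Both pDC libraries were at or near 0 counts here. DESeq2 did not call it (adjusted p = 0.107). Against the input at total scaling the cDC signal was not higher (adjusted p = 0.182), while it was with repeat-window scaling (adjusted p = 3.14e-05). Without pDC replicate 1 the log2 fold was -2.41, and without pDC replicate 2 the only pDC count left was 0, so the fitted value of -7.72 depends on the prior count.

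At the start of H2-Eb1, the site at chr17:34305751-34305960 overlapped the promoter shown above, and its strongest window was centred 61 bp before the gene's start. It held 24 and 15 counts in cDCs, 2 and 1 in pDCs and 6 in the input. The ratio of scaled counts was 7.97 (95% exact interval 2.53 to 40.3, log2 fold -2.92 ± 0.72, site adjusted p = 0.0171). This strongest window lies by the Y box letters of a promoter window with no GGAA or TTCC, and signal at this resolution does not place a binding site. The site was low, and against the input at total scaling the cDC signal was not higher (adjusted p = 0.890), while it was with repeat-window scaling (adjusted p = 0.00441). The call ended without either cDC library (log2 fold -2.51 and -3.25), with DESeq2 and at a minimum fold of 1.5.

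A stronger site farther into H2-Eb1, chr17:34312151-34312660, had 79 and 72 counts in cDCs, 21 and 21 in pDCs and 0 in the input. Its log2 fold was -1.13 ± 0.31 (site adjusted p = 0.0345). The call ended without either cDC library or pDC replicate 1, with DESeq2, with repeat-window scaling and at a minimum fold of 1.5. Before the gene, 3.86 kb from the span, the site at chr17:34301901-34302010 held 16 and 22 counts in cDCs, 1 and 3 in pDCs and 3 in the input (log2 fold -2.48 ± 0.68, site adjusted p = 0.0139). Both cDC libraries were above both pDC libraries, but the cDC signal was not above input at total scaling (adjusted p = 0.895), and the call ended without either cDC library and with DESeq2. Without pDC replicate 1 the log2 fold was -1.78 and without pDC replicate 2 it was -3.56. H2-Eb1 and H2-Eb2 are similar in sequence, and how the 49 bp reads that fit both were handled is not given in the sources, so the split between them is uncertain.

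H2-Eb2, another beta-chain gene of the H2-E kind (chr17:34325503-34341410), had 3 sites, with sums of 94.9 and 93.6 CPM in cDCs and 59.5 and 88.7 CPM in pDCs. Its log2 fold of -0.35 ± 0.18 was not called (edgeR adjusted p = 0.214), and the pDC libraries differed more from each other than pDC replicate 2 did from the cDCs. The strongest of its sites, chr17:34340951-34341310 at the far end of the span, had 172 and 173 counts in cDCs and 95 and 87 in pDCs (log2 fold -0.21 ± 0.23, not called). At chr17:34325201-34325460, which overlaps the first bases of the promoter window shown, the counts were 36 and 41 in cDCs and 7 and 13 in pDCs (log2 fold -1.22 ± 0.42, site adjusted p = 0.0831), so the libraries did not overlap and the site was not called. Its strongest window was 369 bp before the start, outside the printed letters.

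H2-Ab1, the beta chain gene of H2-A (chr17:34263227-34269418), had no deposited window inside its span and 2 sites before it. They summed to 85.9 and 84.7 CPM in cDCs and 58.4 and 64.7 CPM in pDCs (log2 fold -0.47 ± 0.15, edgeR adjusted p = 0.0454). The call ended without either cDC library (log2 fold -0.47 and -0.48). The 2 sites behaved differently. The nearer one, 1.42 kb before the lower end of the span at chr17:34261401-34261810, held 58 and 63 counts in cDCs, 10 and 6 in pDCs and 2 in the input. The cDC signal was 4.60-fold higher (log2 fold -2.20 ± 0.39, site adjusted p = 0.00137), and the call held in each of the 12 alternatives that gave this site a value. The farther one, at chr17:34257551-34258010 in the span of Gm20506, was stronger and nearly level, with 136 and 149 counts in cDCs, 94 and 65 in pDCs and 0 in the input (log2 fold -0.14 ± 0.23, not called).

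H2-Aa, the alpha chain gene of H2-A (chr17:34282744-34287823, minus strand), had 7 sites that summed to 240 and 235 CPM in cDCs and 174 and 192 CPM in pDCs. The libraries of the cell types did not overlap (log2 fold -0.38 ± 0.11, edgeR adjusted p = 0.0324), and the call ended without either cDC library (log2 fold -0.37 and -0.39). None of the 7 sites was called on its own by edgeR or DESeq2, and 2 had an unadjusted p under 0.05, both higher in cDCs. The site with the most signal of the whole cluster was among them, at chr17:34293451-34293960, between H2-Aa and H2-Eb1. It held 321 and 307 counts in cDCs, 176 and 139 in pDCs and 2 in the input, equal to 29.4 and 26.5 CPM against 23.2 and 22.4 CPM (log2 fold -0.29 ± 0.22, site adjusted p = 0.342). It made up 62.8% of the H2-Aa sum in cDCs and 62.9% in pDCs, so the sum mostly describes this 1 site 5.63 kb from the span. By the windows of the H2-Aa span alone the log2 fold was -0.08 and not called.

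Inside H2-Aa, the site at chr17:34286551-34286860 had 105 and 111 counts in cDCs and 78 and 51 in pDCs (log2 fold -0.05 ± 0.24), and its libraries overlapped on the CPM scale. The promoter shown above was overlapped by the site at chr17:34287851-34288110, with its strongest window 183 bp before the start, beside the first of the 3 TTCC cores. It held 28 and 35 counts in cDCs, 10 and 8 in pDCs and 1 in the input (log2 fold -1.09 ± 0.43, site adjusted p = 0.113). The strong sites of H2-Aa were thus not called different, and the weaker promoter site had its cDC libraries above its pDC libraries without being called either.

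**Figure D3:**
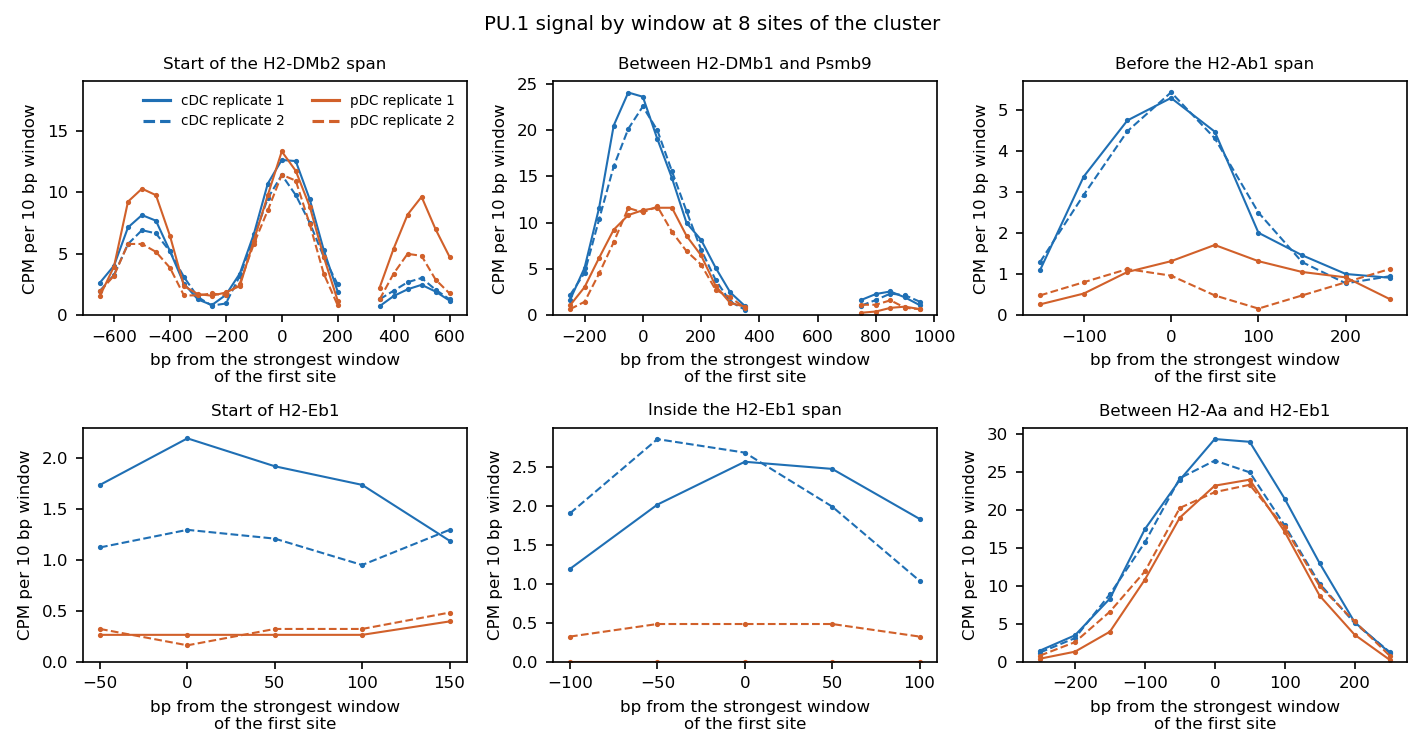
PU.1 signal by window at 8 sites, as CPM per 10 bp window against distance in bp from the strongest window of the first site in each panel, with 1 line per library (solid for replicate 1, dashed for replicate 2). Vertical scales differ between panels. The 2 cDC lines lie above the 2 pDC lines at the strongest window before H2-Ab1 and in both H2-Eb1 panels, while in the panel of the start of the H2-DMb2 span the lines lie together at the central peak and the pDC lines are higher at the peak to its right.

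H2-DMa, the alpha chain gene of H2-DM (chr17:34119693-34139101), had 6 sites with sums of 56.7 and 56.6 CPM in cDCs and 33.1 and 49.1 CPM in pDCs (log2 fold -0.47 ± 0.21, edgeR adjusted p = 0.147). The difference was not called, and pDC replicate 1 was the lower of the pDC pair. Its strongest site, chr17:34124701-34124960, held 81 and 91 counts in cDCs and 34 and 43 in pDCs (log2 fold -0.44 ± 0.28, not called). A weak site farther into the span, chr17:34135601-34135710, was called higher in cDCs (site adjusted p = 0.0314). Its strongest window held 18 and 15 counts in cDCs, 4 and 4 in pDCs and 5 in the input. That window was not called on its own (log2 fold -1.32 ± 0.58, edgeR adjusted p = 0.131). The call came from the window at 34135701, with 17 and 16 counts in cDCs, 3 and 0 in pDCs and 6 in the input (log2 fold -2.69 ± 0.78, edgeR adjusted p = 0.0201). The raw input count was above that of either pDC library here, the cDC signal was not above input at total scaling (adjusted p = 0.803), and the call ended without either cDC library or pDC replicate 2, with DESeq2 and at a minimum fold of 1.5.

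H2-DMb2 and H2-DMb1 are neighbouring, similar genes for the beta chain of H2-DM, and the split of reads between them is uncertain for the reason given for H2-Eb1. H2-DMb2 (chr17:34143229-34151553) had 3 sites with sums of 118 and 109 CPM in cDCs and 142 and 108 CPM in pDCs. The ranges overlapped, and the log2 fold of 0.14 ± 0.15 was not called (edgeR adjusted p = 0.592) and turned to -0.08 without pDC replicate 1 and to -0.26 with repeat-window scaling. Adjoining sites at the lower end of the span differed in their pattern. The stronger, chr17:34142501-34143360, was 860 bp wide with more than 1 peak, and its strongest window held 138 and 132 counts in cDCs and 101 and 71 in pDCs (log2 fold 0.05 ± 0.23, not called). It was followed at chr17:34143501-34143760 by a site with 27 and 35 counts in cDCs, 73 and 30 in pDCs and 1 in the input. This was 2.66-fold higher in pDCs (log2 fold 1.41 ± 0.33, site adjusted p = 0.00978), with 9.63 and 4.83 CPM in pDCs against 2.47 and 3.02 CPM in cDCs, so much of the height came from pDC replicate 1. Without that library the log2 fold was 0.81 and the call ended, as it did without either cDC library, with DESeq2, with repeat-window scaling and at a minimum fold of 1.5.

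H2-DMb1 (chr17:34153191-34160229) had the largest sum of the 9, since it was nearest to 9 sites, only 1 of them in its span. The sums were 302 and 288 CPM in cDCs and 247 and 237 CPM in pDCs (log2 fold -0.28 ± 0.10, edgeR adjusted p = 0.0703), a difference without overlap that was not called. The interval after H2-DMb1 also holds the class I genes Psmb9, Tap1, Psmb8 and Tap2, so the sum describes the interval more than the gene: by the span and 10 kb on both sides the log2 fold was 0.06. The second-strongest site of the cluster by mean CPM lay 13.8 kb past H2-DMb1, at chr17:34174001-34174610, before the span of Psmb9. It held 258 and 261 counts in cDCs, 86 and 69 in pDCs and 0 in the input, or 23.6 and 22.5 CPM against 11.3 and 11.1 CPM. The cDC signal was 2.05-fold higher (log2 fold -1.04 ± 0.23, site adjusted p = 0.0108), and this was the only one of the 10 strongest sites of the cluster higher in cDCs. The call ended without either cDC library (log2 fold -1.01 and -1.07), with DESeq2, with repeat-window scaling and at a minimum fold of 1.5.

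H2-Oa (chr17:34092379-34095234) and H2-Ob (chr17:34238905-34245908), the chains of H2-O, lay on different sides of level. H2-Oa had 3 sites with sums of 91.7 and 94.8 CPM in cDCs and 137 and 106 CPM in pDCs. Both pDC libraries were above both cDC libraries, and the log2 fold of 0.39 ± 0.15 was not called (edgeR adjusted p = 0.0977) and was -0.02 with repeat-window scaling. Its strongest site, chr17:34092551-34092910 in the span, held 104 and 122 counts in cDCs and 131 and 78 in pDCs (log2 fold 0.58 ± 0.24, site adjusted p = 0.198). The site at chr17:34101801-34102110, 6.57 kb past the span, was similar, with 121 and 119 counts in cDCs and 123 and 74 in pDCs (log2 fold 0.41 ± 0.24, site adjusted p = 0.399).

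H2-Ob had 7 sites with sums of 111 and 128 CPM in cDCs and 85.5 and 85.8 CPM in pDCs. The cDC signal was 1.39-fold higher (log2 fold -0.48 ± 0.13, edgeR adjusted p = 0.0319), and the call ended without either cDC library (log2 fold -0.59 and -0.37). It also ended at a mean of at least 30 counts, with repeat-window scaling and at a minimum fold of 1.5. Neither the span with 10 kb on both sides (log2 fold -0.44, edgeR adjusted p = 0.0521) nor the span alone (-0.46, 0.242) was called. Only 2 of the 7 sites lay in the span, and others lay in the spans of Tap2 and Gm20506. None of the 5 tested sites was called by edgeR or DESeq2, and 1 had an unadjusted p under 0.05. That was the strongest, chr17:34248801-34249110 in the span of Gm20506, with 89 and 99 counts in cDCs, 36 and 30 in pDCs and 0 in the input (log2 fold -0.80 ± 0.27, site adjusted p = 0.161). The difference between the H2-Oa and H2-Ob folds was not tested.

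Other genes lie between the 9. Their spans held 12 of the 48 sites, of which 1 was called, 10 were not called and 1, in Tap2, was not tested. Of all tested sites of the genome 6.07% were called higher in cDCs and 8.53% in pDCs. The called site lay in the span of Tap1, a subunit of the transporter that loads peptides on class I molecules, at chr17:34196501-34196810. It held 48 and 40 counts in cDCs, 92 and 63 in pDCs and 1 in the input, or 4.39 and 3.46 CPM against 12.1 and 10.1 CPM. The pDC signal was 2.85-fold higher (log2 fold 1.51 ± 0.27, site adjusted p = 0.00119), and the call held with DESeq2 and at a minimum fold of 1.5 but ended without cDC replicate 2 (log2 fold 1.34) and with repeat-window scaling (1.02). A site at the start of Psmb8, an immunoproteasome subunit, lay farther on at chr17:34198201-34198510 and had 80 and 115 counts in cDCs and 89 and 66 in pDCs (log2 fold 0.37 ± 0.25, not called). The remaining 9 tested sites lay in the spans of Brd2, Tap1, Tap2, Gm20506 or BC051537, some of which overlap spans of the 9 genes, with log2 folds from -0.94 to 0.70. Summed over the span and 10 kb on both sides, where windows are shared between genes, Psmb9 was higher in cDCs (log2 fold -0.40, edgeR adjusted p = 0.0328, a direction called for 8.17% of all genes by this sum). Psmb8 and Tap2 had the same value and were higher in pDCs (log2 fold 0.51, adjusted p = 0.0274, against 9.03%). Tap1 (0.39, adjusted p = 0.0613) and Brd2 (-0.26, adjusted p = 0.394) were not called. All 3 called sums take in the pDC-higher site in Tap1, and that of Psmb9 also the strong cDC-higher site before it.

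**Figure D4:**
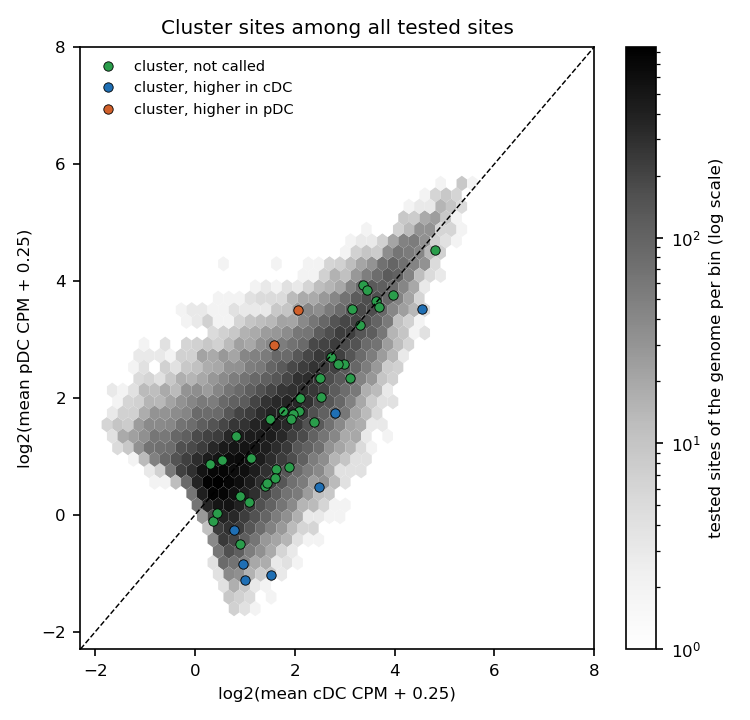
Mean pDC CPM against mean cDC CPM at the strongest window of each tested site, both as log2 of CPM plus 0.25. Grey bins count all 60076 tested sites of the genome, 5 of them beyond the plotted range, and points are the 44 tested cluster sites coloured by call. The dashed line marks equal levels. Of the cluster sites 34 have a negative log2 fold, and the 3 points lowest in pDCs are called sites around H2-Eb1.

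Most genes of the pathway outside the cluster were not called. Of 19 with measured sites, each site given to its nearest gene, 3 had more signal in cDCs (15.8%, against 8.52% of all genes) and 2 in pDCs (10.5%, against 9.70%), while 14 were not called, with a median log2 fold of -0.09. Higher in cDCs were Ifi30, the thiol reductase of the endosome, with 18.5 and 17.5 CPM in cDCs and 8.59 and 8.92 CPM in pDCs (log2 fold -1.04 ± 0.29, edgeR adjusted p = 0.0318), the protease gene Ctsd (log2 fold -0.59 ± 0.16, adjusted p = 0.0270) and the costimulatory ligand gene Cd86 (log2 fold -0.57 ± 0.16, adjusted p = 0.0300). Higher in pDCs were the protease gene Ctsl, with 15.2 and 16.96 CPM in cDCs and 40.2 and 32.4 CPM in pDCs (log2 fold 1.18 ± 0.24, adjusted p = 0.00788), and Nfyc, which encodes a subunit of the Y box factor NF-Y (log2 fold 0.46 ± 0.14, adjusted p = 0.0408). These calls depended on which sites were counted for a gene. Over the span and 10 kb on both sides, Cd86 and Nfyc stayed called, Ctsd (log2 fold -0.51, adjusted p = 0.107) and Ctsl (0.52, adjusted p = 0.216) were not, and Ifi30 turned to 0.23 (adjusted p = 0.471). Cd83, a maturation marker with a log2 fold of 0.16 by nearest sites, was then called higher in cDCs (-0.45, adjusted p = 0.0403). At Cd74, the invariant chain that fills the peptide groove until H2-DM acts, the values were 180 and 181 CPM in cDCs and 149 and 174 CPM in pDCs (log2 fold -0.16 ± 0.12, adjusted p = 0.389). Ciita had 12 sites that summed to 293 and 285 CPM in cDCs and 227 and 275 CPM in pDCs (log2 fold -0.20 ± 0.11, adjusted p = 0.249). Although its sum was not called, 2 of the Ciita sites were higher in cDCs and 1 in pDCs.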

How the data were processed

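The deposited values are counts per 10 bp window on a 50 bp grid, with no normalisation, in 329996 windows equal to those of the per-sample files. Per the submitters' processing notes, Subread 1.4.4 and mm10 were used; the sources used here do not give read extension, filters, the handling of multi-mapping reads or the choice of windows. One read can be counted in neighbouring windows, so totals are not read depth.

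Windows were kept with filterByExpr (minimum count 10; 286435 kept) and compared with edgeR 4.0.16 (R 4.3.3, limma 3.58.1), TMM factors and cell type as the only term, with Benjamini-Hochberg adjustment over the genome. The biological coefficient of variation was 0.159. Window p-values were combined per site by the Simes method. Input was compared in a fit of all 5 libraries, with the lone input taken to vary as the PU.1 libraries do. Gene spans came from RefSeq, GRCm38.p6 (GenomicRanges 1.54.1), without exons. Standard errors are those implied by the test's F statistic. With 2 against 2 libraries no single value was tested alone. Repeat windows were those with at least 1000 input counts, and no repeat annotation was used. DESeq2 1.42.0 was an alternative. The code was tested on simulated data. All 9 genes are named, with the strongest site of each, the 10 strongest sites of the cluster and every called site; other sites, including the promoter sites of H2-Aa and H2-Eb2, were chosen after their values were seen. The gene spans set the bounds; narrower bounds starting inside H2-DMb2 were an alternative. The other genes in the interval have sums only over the span and 10 kb on both sides, since each site was given to one of the 9. Genes and lists were chosen with earlier results of these data known.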

Additional observations from a re-analysis of the deposited data

How the results depend on the processing

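Counts of calls moved with the libraries, the scaling and the tool, and each pair below gives cDC before pDC. Leaving out 1 library at a time gave 2 to 15 and 0 to 4 sites (7 and 2 with all), 6 to 47 and 4 to 17 windows (30 and 9), and 1 to 7 and 0 to 2 genes (4 and 0). Without pDC replicate 2 the counts were highest (15 and 4 sites, 47 and 17 windows, 7 and 2 genes), without cDC replicate 1 they were 2 and 1, 6 and 4, and 1 and 0, without cDC replicate 2 they were 2 and 0, 8 and 4, and 1 and 0, and without pDC replicate 1 they were 6 and 1, 19 and 4, and 5 and 0. Calls over the whole genome also moved with each omission, so these counts do not describe the cluster alone. DESeq2 called 1 and 1 sites and 7 and 3 windows. Over the genome it called 432 and 1464 sites, where the main fit called 3644 and 5124. A minimum fold of 1.5 left 3 and 1 sites, 12 windows and 1 gene higher in cDCs. Over the genome that minimum left 1418 and 2813 sites. Keeping only windows whose mean was 30 counts or more gave 3 sites, 12 windows and 1 gene higher in cDCs and 5 windows higher in pDCs. Over the genome that filter gave 2253 and 1948 sites. Sites of that mean, a limit added after seeing the data, also gave 3 higher in cDCs. Repeat-window scaling moved the median log2 fold of all windows to -0.54 and that of cluster windows to -0.87 and left 0 sites and 0 windows higher in pDCs and 0 genes higher in cDCs. That scaling rests on the repeat windows, which held 18.0% of the counts of pDC replicate 2 and 9.15 to 10.5% of those of the other PU.1 libraries. It raised the sites above input to 44 and 39, with no share of the genome's sites taken at that scale. Bounds starting inside H2-DMb2 left 1 site higher in pDCs, the gene span alone 1 gene higher in cDCs, and the span with 10 kb 1 pathway gene higher in pDCs.

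The cluster sum kept its direction in all 12 alternatives, and its call ended in 7: repeat-window scaling (-0.74), a mean of at least 30 counts (-0.20), all 5 libraries in the fit (-0.27), a replicate block (-0.28), a minimum fold of 1.5 (-0.28) and without either cDC library (-0.284 to -0.276 over the 4 omissions). Log2 folds changed sign with repeat-window scaling at H2-Oa (-0.024), H2-DMb2 (-0.26) and the sites at 34101801 (-0.068), 34142501 (-0.45) and 34198201 (-0.16), with library-size scaling at 34142501 (-0.078), and with the span and 10 kb at H2-DMb1 (0.060). Left-out libraries gave ranges across 0 at H2-DMb2 (-0.082 to 0.32) and at 34142501 (-0.072 to 0.15) and 34286551 (-0.23 to 0.10). The cause of these changes was not tested.

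The samples share only a replicate number: deviations of same-numbered libraries correlated at 0.02 over all windows and 0.03 over those of the cluster. With the replicate block, the adjusted p was 0.0702 for the cluster sum and 0.0530 for H2-Ab1, and 8 and 2 sites were called.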

Other observations

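Past the far end of H2-Eb2, 3 more sites lay within 10 kb of the cluster. The strongest, chr17:34347651-34348060, had 144 and 147 counts in cDCs, 120 and 90 in pDCs and 6 in the input (log2 fold 0.23 ± 0.23, not called). A single window at 34343251 lay in the span of H2-Ea, the alpha-chain gene of H2-E, which RefSeq lists as a pseudogene, and held 6 and 9 counts in cDCs and 14 and 4 in pDCs, too few to test. The site at 34341651 held 16 and 14 counts in cDCs and 9 and 7 in pDCs (log2 fold -0.20 ± 0.51, not called).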
